A study of Mus musculus with 32 samples.

Results

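The genes of antigen presentation by the major histocompatibility complex (MHC) were described in 4 tissues of C57BL/6J mice, all males: liver, heart, skeletal muscle and brown adipose tissue (BAT). The members were chosen by name. They were the 34 protein-coding genes whose GENCODE M21 symbol starts with H2-, together with B2m, Tap1, Tap2, Tapbp, Cd74, Psmb8, Psmb9, Psmb10, Ciita and Nlrc5, giving 44 of 51510 genes. By role, 25 encode class I chains (B2m among them), 6 supply or load peptides, 10 belong to class II and 2 are regulators. The remaining member, H2-Ke6, carries the prefix but encodes a dehydrogenase that takes no part in antigen presentation. On the mouse build GRCm38, 39 of the members lie on chromosome 17. Each tissue was taken from Smim30 knockout mice (Mut) and from wild-type controls (WT), with 4 libraries from individual mice in each of the 8 groups. All groups shared strain and sex, and the labels name no further treatment. The sources used here give neither the kind of knockout allele nor the age of the mice. Levels are in TPM, a share of a library's RNA that is scaled for transcript length, summed over the transcripts of a gene, so levels of different genes can be set side by side.

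Class I molecules pair a heavy chain with beta-2-microglobulin (B2m) and show peptides from the cell's own proteins to cytotoxic T cells. The peptides are cut by the proteasome, carried into the endoplasmic reticulum by the Tap1-Tap2 transporter and loaded with the help of tapasin (Tapbp). Class II molecules show peptides from engulfed material to helper T cells and are made mainly by macrophages, dendritic cells and B cells, where the invariant chain Cd74 and the H2-DM proteins steer loading. Nlrc5 and Ciita are the transactivators of the class I and class II genes.

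The tissue labels were checked first. Ucp1 (brown fat), Myh6 (heart), Alb (liver) and Acta1 (muscle) were each highest in the tissue the label names. Each was also read in all libraries of the other tissues. There Ucp1 lay at 43.7 to 69.6 TPM, Myh6 at 55.4 to 103, Alb at 482 to 814 and Acta1 at 243 to 604. The source of these reads, and any like part in low values of other genes, was not tested. RNA of Smim30, listed under its older symbol 2610001J05Rik, was present in every library labelled Mut. It lay at 27.3 to 33.0 TPM in Mut BAT against 23.5 to 32.3 in WT, and at 17.3 to 25.6 against 18.6 to 26.4 in liver, so the genotypes overlapped in both tissues. In heart it lay at 17.8 to 27.4 against 32.7 to 37.6 TPM and in muscle at 24.3 to 27.3 against 32.9 to 35.7 TPM, without overlap. The part of the gene that the knockout removes is not stated, so the level is given as a description and checks no genotype label. Heart Mut library 2 stood apart, with 54.7% of its TPM on mitochondrially encoded genes. The next highest heart library had 44.7%.

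Class I transcripts were most abundant in liver and class II transcripts in BAT. The members together took 0.655 ± 0.0366% of all TPM in WT liver, 0.174 ± 0.0262% in BAT, 0.0792 ± 0.00701% in heart and 0.0494 ± 0.00436% in muscle (SD, n = 4). In bulk tissue, fewer cells of a type and less RNA per cell cannot be told apart. H2-K1, a classical class I heavy chain, was at 1315, 1203, 1191 and 1172 TPM in the 4 WT liver libraries. It was at 223, 238, 277 and 239.9 TPM in BAT, 113, 112, 91.8 and 121 TPM in heart and 65.9, 80.4, 67.9 and 78.2 TPM in muscle. No library of one tissue overlapped with those of another, and the mean in liver was 4.99 times that in BAT and 16.7 times that in muscle. On the log2(TPM + 1) scale, which understates differences of low genes, liver exceeded BAT by 2.32 ± 0.09 (SE, adjusted p = 2.1e-13 in limma) and muscle by 4.05 ± 0.09 (adjusted p = 4.58e-17).

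B2m, the light chain shared by class I molecules, was at 2618, 2453, 2067 and 2130.0 TPM in WT liver and 526, 536, 723 and 634 TPM in BAT. In heart it was at 263, 259, 201.95 and 239 TPM and in muscle at 143, 175, 153 and 161 TPM. The tissues kept the order seen for H2-K1, again without overlap, and liver stood 14.7-fold over muscle. Relative to the sum of H2-K1 and H2-D1, B2m had WT mean ratios of 1.31 in BAT, 1.29 in heart, 1.48 in liver and 1.33 in muscle. Over the 32 libraries of both genotypes this ratio ran from 1.15 to 2.14, the highest in a Mut liver library. H2-D1, the other classical heavy chain, followed the same order with a smaller gap between the first tissues: 341 ± 35.6 TPM in liver, 217 ± 33.2 in BAT, 78.5 ± 9.52 in heart and 45.8 ± 4.69 in muscle.

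The non-classical class I chains were uneven. H2-T23, which encodes Qa-1, a ligand of natural killer cell receptors, lay at 135 to 189 TPM in WT liver and at no more than 19.7 TPM in the other WT libraries. BAT and heart did not differ in it beyond the threshold (0.05, adjusted p = 0.731). H2-Q7, a Qa-2 chain, lay at 60.1 to 107 TPM in liver and at 2.39 to 13.4 TPM elsewhere. H2-Q4 averaged 29.3 TPM in liver, 18.2 in BAT, 13.8 in heart and 5.77 in muscle. H2-Q1 was at 4.11 to 9.12 TPM in WT liver and at no more than 0.200 TPM in any other WT library. H2-M3, which presents formylated peptides, ran the other way: it averaged 2.65 ± 0.559 TPM in BAT and 2.66 ± 0.464 in heart, and was lower in liver, at 1.54 ± 0.607 (-0.55 against BAT, adjusted p = 0.00578).

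**Figure D1:**
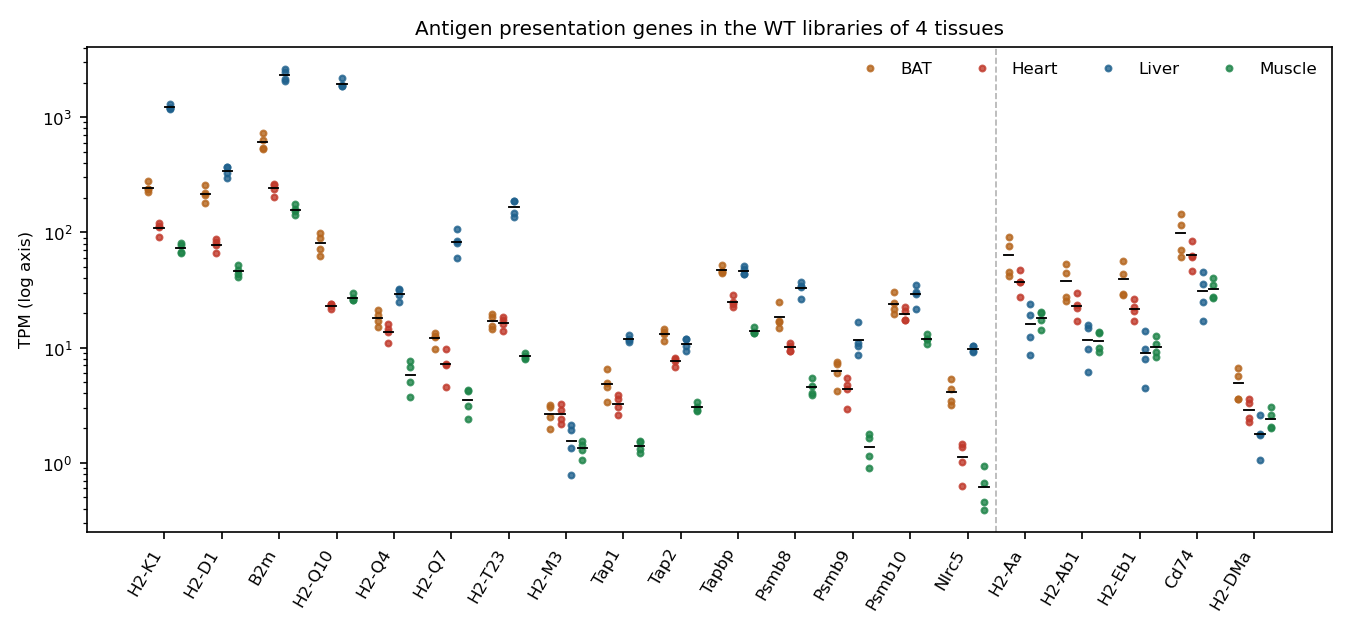
TPM (log axis) of 20 antigen presentation genes in the WT libraries of 4 tissues, with 1 point per library and a bar at each mean; the dashed line separates class II genes, on the right, from the others. H2-K1, B2m, H2-Q10, H2-Q7 and H2-T23 sit highest in liver, and H2-Aa, H2-Ab1, H2-Eb1 and Cd74 sit highest on average in BAT.

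Of the 44 members, 26 reached an average of 1 TPM over the 16 WT libraries and were tested. H2-Q1 did so through liver alone, so a higher level there was bound to be found in it; without it, the counts of 14, 18 and 18 members higher in liver given next are 13, 17 and 17. In WT mice, 14 of them were higher in liver than in BAT and 10 lower, where 37.4% and 35% of all genes were called in these directions. Against heart, 18 were higher in liver (46.7% of all genes) and 7 lower (32.5%). Against muscle, 18 were higher in liver (42.9%) and the other 8 did not pass. BAT exceeded heart in 18 members (39.9%) and muscle in 25 (40.9%), and heart exceeded muscle in 21 (28.9%), while 8, 1 and 5 members in turn did not pass. In the opposite direction limma called none of the members in these 4 contrasts, and 0 had an unadjusted p under 0.05, where 37.2% (muscle over liver), 23.2% (heart over BAT), 32.7% (muscle over BAT) and 35.9% (muscle over heart) of all genes were called. The median log2 difference of the members was 2.29 for liver minus muscle, 1.57 for BAT minus muscle and 0.81 for heart minus muscle. Over all genes these medians were 0.07, 0.08 and -0.07.

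Part of these contrasts depends on scaling, since mitochondrial and a few abundant transcripts take unequal shares of the tissues. After rescaling without mitochondrial genes and the 10 most abundant genes, the median of all genes moved to -0.62 for liver minus BAT and -0.54 for liver minus heart. Under it, 10 members were higher and 12 lower in liver than in BAT, and 13 higher and 10 lower than in heart. H2-D1 turned from 0.66 to -0.095 and H2-Q4 from 0.66 to -0.062 for liver minus BAT. H2-K1, B2m, H2-Q10, H2-Q7, H2-T23, Tap1 and Nlrc5 remained higher in liver than in each other tissue, at adjusted p under 0.05, under all alternatives run for them. For H2-K1 the liver minus BAT difference ranged from 1.56 to 2.50 over them.

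H2-Q10 spanned the widest range of the abundant members. It encodes a class I protein that is secreted rather than held at the membrane. In WT liver it was at 1918, 2194, 1878 and 1853 TPM, above H2-K1 in every library. It was at 62.8, 99.2, 88.7 and 71.2 TPM in BAT, 21.8, 24.0, 22.9 and 23.8 TPM in heart and 29.5, 26.1, 26.1 and 26.8 TPM in muscle. The mean in liver was 24.4 times that in BAT, 84.9 times that in heart and 72.3 times that in muscle. Heart and muscle did not differ beyond the threshold (-0.22, adjusted p = 0.089), and BAT exceeded heart by 1.74 ± 0.11 (SE, adjusted p = 2.83e-10). Alb, the albumin transcript of hepatocytes, was also read outside liver, at 0.953% (BAT), 1.00% (heart) and 1.34% (muscle) of its WT liver mean. For each 1000 TPM of Alb there were 32.5 to 39.4 TPM of H2-Q10 in the 8 liver libraries, 38.8 to 45.1 in heart and 34.3 to 36.8 in muscle. In BAT the figure was 113 to 178, above every library of the other tissues. Heart and muscle thus held H2-Q10 and Alb in a proportion near that of liver, and BAT did not. H2-K1 showed no such constancy, at 17.0 to 25.4 TPM for each 1000 TPM of Alb in liver and 127 to 206 in heart. The source of the Alb and H2-Q10 reads outside liver was not tested.

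**Figure D2:**
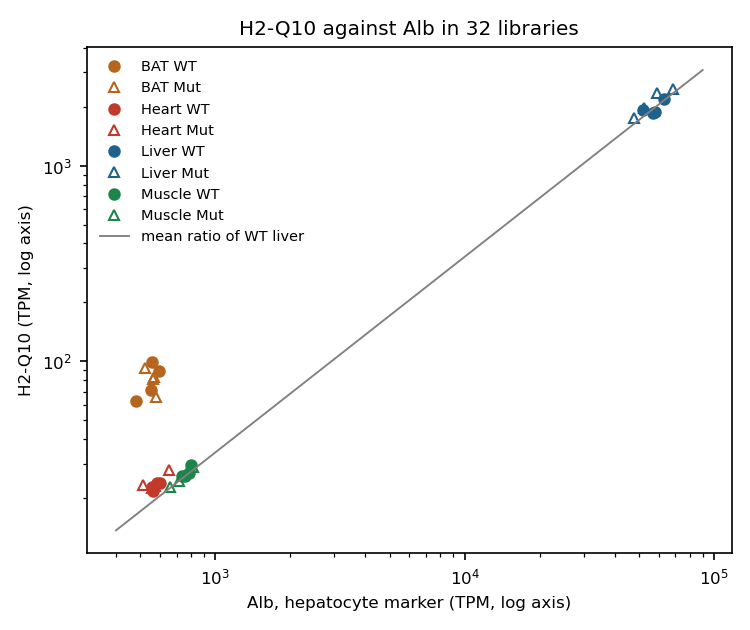
H2-Q10 against Alb, both in TPM on log axes, in the 32 libraries; filled circles are WT, open triangles are Mut and the line is the mean ratio of WT liver. Heart and muscle libraries lie near the line far below liver, and the 8 BAT libraries lie above it at 113 to 178 TPM of H2-Q10 for each 1000 TPM of Alb.

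Promoters of 5 class I heavy chains are shown because the sequences are much alike while the tissue levels of the genes differ. They come from RefSeq promoter windows (build GRCm38.p6), which matched 37 of the 44 members. The stretches are H2-K1 at chr17:34000334-34000485 (minus strand), H2-D1 at chr17:35262896-35263047 (plus strand), H2-Q6 at chr17:35424650-35424801 (plus strand), H2-Q7 at chr17:35438995-35439146 (plus strand) and H2-Q10 at chr17:35469886-35470037 (plus strand), each upstream of the annotated start and written in the direction of transcription. Capitals mark the kappa B element of class I enhancer A, which comes first in each line that has it, and CCAATC, which holds CCAAT in the direction of transcription.
H2-K1: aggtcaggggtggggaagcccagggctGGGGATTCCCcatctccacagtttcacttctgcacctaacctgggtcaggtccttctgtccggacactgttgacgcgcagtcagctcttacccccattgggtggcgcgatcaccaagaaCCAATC
H2-D1: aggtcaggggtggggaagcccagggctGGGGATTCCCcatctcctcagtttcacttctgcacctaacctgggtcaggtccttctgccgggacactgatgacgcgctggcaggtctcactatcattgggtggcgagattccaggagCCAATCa
H2-Q6: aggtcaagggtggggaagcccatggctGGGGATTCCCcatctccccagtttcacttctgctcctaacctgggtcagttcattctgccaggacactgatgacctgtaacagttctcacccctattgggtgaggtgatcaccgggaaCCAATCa
H2-Q7: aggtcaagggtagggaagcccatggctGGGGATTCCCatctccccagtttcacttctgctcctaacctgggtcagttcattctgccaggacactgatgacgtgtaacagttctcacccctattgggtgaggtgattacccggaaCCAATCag
H2-Q10: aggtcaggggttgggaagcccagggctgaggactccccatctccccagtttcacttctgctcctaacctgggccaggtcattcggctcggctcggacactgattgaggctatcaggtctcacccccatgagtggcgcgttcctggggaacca
The kappa B element, searched on both strands in exactly the form shown, occurred in the windows of H2-K1, H2-D1, H2-Q6 and H2-Q7 and in no other member window, against 0.107% of 32851 promoter windows. GATTGG or CCAATC occurred in 28 of the 37 member windows, against 16.1% of all windows. The H2-Q10 window held neither, and it belongs to the gene with the widest liver excess among these 5. H2-K1, H2-D1, H2-Q6 and H2-Q7 each held both, and their mean liver to BAT ratios were 4.99, 1.57, 2.67 and 6.95. Whether a match goes with a tissue level was not tested. A match describes letters in a window and is not a binding site.

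B2m and H2-T23 are shown for a pattern like the interferon-stimulated response element, in which GAAA, a pair of arbitrary bases and GAAA follow each other. The stretches are B2m at chr2:122147537-122147656 (plus strand) and H2-T23 at chr17:36032732-36032851 (minus strand), and capitals mark the pattern on either strand and GATTGG or CCAATC.
B2m: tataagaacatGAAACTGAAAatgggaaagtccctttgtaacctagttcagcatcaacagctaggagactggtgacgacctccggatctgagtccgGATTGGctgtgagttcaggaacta
H2-T23: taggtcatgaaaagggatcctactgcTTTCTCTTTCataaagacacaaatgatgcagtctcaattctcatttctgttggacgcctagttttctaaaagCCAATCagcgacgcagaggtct
The pattern occurred in the windows of B2m, H2-T22 and H2-T23, against 3.44% of all windows. In WT liver these 3 genes averaged 2317 ± 262, 74.0 ± 5.50 and 165 ± 27.1 TPM (SD, n = 4).

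Of the 6 genes that supply and load peptides, Tap1, Psmb8, Psmb9 and Psmb10 had means in the tissue order of H2-K1, and Tap2 and Tapbp had their highest means in BAT. Psmb10 did not differ between liver and BAT beyond the threshold in limma (0.27, adjusted p = 0.0994). The coding transcript of Psmb10 given at the end had a higher mean in heart than in BAT. Tap1, a subunit of the peptide transporter, averaged 11.9 ± 0.658 TPM in WT liver, 4.82 ± 1.29 in BAT, 3.26 ± 0.556 in heart and 1.40 ± 0.158 in muscle (SD, n = 4). Its partner Tap2 was highest in BAT, at 13.1 ± 1.28 TPM against 10.8 ± 1.26 in liver (-0.26, adjusted p = 0.0201), a call that did not hold without BAT WT library 2, liver WT library 1 or liver WT library 3. Tapasin (Tapbp) was level between BAT and liver, at 47.0 ± 3.74 and 46.6 ± 4.03 TPM (-0.01, adjusted p = 0.891). Tap1 and Psmb9 are transcribed away from each other from starts 226 bases apart, and without knowledge of strand use in the counting, reads over their overlap cannot be assigned. Nlrc5, the class I transactivator, averaged 9.74 ± 0.628 TPM in liver, 4.08 ± 0.968 in BAT, 1.11 ± 0.375 in heart and 0.611 ± 0.245 in muscle, the order of H2-K1.

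The immunoproteasome replaces the catalytic subunits Psmb5, Psmb6 and Psmb7 with Psmb8, Psmb9 and Psmb10, which changes the peptides that are cut. Psmb8 made up 19.2% ± 1.78 of the Psmb8 plus Psmb5 TPM in WT liver, 9.85% ± 1.09 in BAT, 9.22% ± 0.577 in heart and 2.93% ± 0.405 in muscle (SD, n = 4). Psmb9 made up 7.06% of its pair in liver and 0.840% in muscle. Psmb10 was nearly level in liver (16.8%), heart (15.6%) and BAT (15.1%) and lower in muscle (4.89% ± 0.236). The Psmb10 sums hold retained-intron transcripts in unequal shares between tissues, and in WT BAT the sums of Tap2, Nlrc5 and H2-Eb1 lie mostly on transcripts not annotated as protein-coding. The constitutive subunit was the larger part of each pair's RNA in every tissue. Between genotypes, none of the 12 shares differed at an adjusted p under 0.05 in an exact two-sided permutation test, which allows no p below 0.0286 for 4 against 4. After adjustment over the 12 comparisons, a single share at that floor stays above 0.05. The test could therefore not have called a lone difference, and no conclusion is drawn from it. The widest shift was Psmb9 in liver, from 7.06% ± 1.95 in WT to 9.89% ± 1.60 in Mut (exact p = 0.0571, adjusted 0.429).

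Class II followed a different order. H2-Aa, the alpha chain of the I-A molecule, was at 41.8, 45.0, 91.1 and 75.6 TPM in WT BAT, 27.5, 37.3, 37.1 and 47.5 TPM in heart, 17.5, 20.2, 14.3 and 19.8 TPM in muscle and 8.66, 19.3, 12.4 and 23.7 TPM in liver. Liver was below BAT (-1.94 on the log2 scale, adjusted p = 6.39e-06) and did not differ from muscle beyond the threshold (-0.24, adjusted p = 0.439). Cd74, the invariant chain, was at 60.9, 70.6, 145 and 115.2 TPM in BAT, 46.6, 61.0, 62.7 and 83.6 TPM in heart, 26.7, 34.9, 27.4 and 40.5 TPM in muscle and 17.0, 35.7, 25.1 and 45.3 TPM in liver. The beta chains H2-Ab1 and H2-Eb1 averaged 37.6 ± 13.3 and 39.4 ± 13.2 TPM in BAT against 11.5 ± 4.42 and 9.01 ± 3.99 in liver. H2-DMa, the alpha chain of the peptide editor H2-DM, averaged 4.88 ± 1.57 TPM in BAT and 1.79 ± 0.631 in liver. BAT WT libraries 3 and 4 held the higher class II values of their group, and the BAT minus heart difference of H2-Aa (0.70, adjusted p = 0.0366) had an adjusted p of 0.133 without library 3. Over all its alternatives that adjusted p ran from 0.0119 to 0.133. Ciita, the class II transactivator, was under 1 TPM in all 32 libraries, at 0.126 to 0.886 TPM.

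The balance of the classes separated liver from the other tissues. For each TPM of H2-Aa, liver held 39.2 to 151.8 TPM of H2-K1 over its 8 libraries, while the 24 libraries of BAT, heart and muscle held 2.48 to 5.34. These ranges do not overlap.

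**Figure D3:**
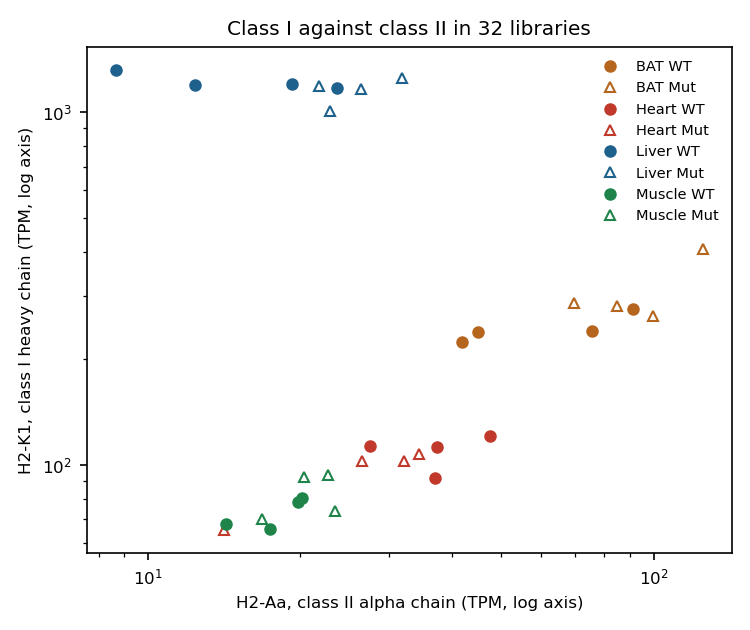
H2-K1 (class I) against H2-Aa (class II), both in TPM on log axes, in the 32 libraries, with filled circles for WT and open triangles for Mut. BAT, heart and muscle fall along 1 band, and the 8 liver libraries lie above it with high H2-K1. H2-Aa lay at 8.66 to 31.8 TPM in liver and at 14.3 to 23.5 TPM in muscle.

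Promoters of 3 class II genes are shown because H2-Eb1 and H2-DMb1 share a match to a form of the X box, a binding element of class II promoters. Of the patterns searched, the H2-Aa window matched only GATTGG, a Y-box-like string. Other forms of the X box were not searched for, so its absence from H2-Aa is not shown. The stretches are H2-Aa at chr17:34287849-34287938 (minus strand), H2-Eb1 at chr17:34305752-34305841 (plus strand) and H2-DMb1 at chr17:34153076-34153165 (plus strand), from the same RefSeq table, with capitals on these matches.
H2-Aa: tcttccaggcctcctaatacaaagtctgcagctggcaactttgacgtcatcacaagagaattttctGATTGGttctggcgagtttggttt
H2-Eb1: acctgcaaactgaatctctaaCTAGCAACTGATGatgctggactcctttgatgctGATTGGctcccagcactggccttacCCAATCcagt
H2-DMb1: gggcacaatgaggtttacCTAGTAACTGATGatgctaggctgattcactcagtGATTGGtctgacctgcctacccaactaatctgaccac
The X box in the form marked by the first capitals of H2-Eb1 and H2-DMb1, with the bases on either side of AAC left free, was searched on both strands and occurred in 0.0304% of all windows. The 3 genes had the same leading tissue, with WT means in BAT of 63.4, 39.4 and 4.23 TPM.

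The remaining members were close to the floor of the data. In every tissue 18 members had a mean under 1 TPM, and 16 reached 1 TPM in no library. Among the 18, the highest single value was 1.56 TPM, for H2-M9 in a Mut BAT library. The 6 genes of the H2-M10 group, known from the vomeronasal organ, reached at most 0.0447 TPM, and 5 members were listed at 0 throughout. H2-Ob, a modulator of H2-DM, lay at 0.102 to 0.728 TPM over the WT libraries. Class I heavy chains are near-identical copies in places, so reads can be split between H2-K1, H2-D1 and the H2-Q genes with some uncertainty.

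Between genotypes, no member passed an adjusted p of 0.05 in limma in any tissue. In BAT, where 0% of all genes were called, 24 of 25 tested members had higher means in Mut, with a median log2 difference of 0.32 against 0.09 over all genes, of which 72.7% were higher. At an unadjusted p under 0.05, 14 members were higher (17.2% of all genes) and 0 lower (2.35%). In 7 members all Mut libraries lay above all WT libraries (7.75% of all genes): B2m, H2-D1, H2-DMb1, H2-T22, H2-T23, H2-T24 and Tapbp. The reverse held for 0 members (1.65% of all genes). B2m was at 834, 812, 825 and 1094 TPM in Mut BAT against 526, 536, 723 and 634 TPM in WT. Every Mut library exceeded every WT library, by 0.56 ± 0.13 on the log2 scale (SE, adjusted p = 0.123). H2-D1 was at 302, 262, 271 and 421 TPM against 179, 209, 259 and 220.0 (0.52 ± 0.16, adjusted p = 0.155). H2-K1 overlapped, at 287, 281, 263 and 408 TPM in Mut (0.32 ± 0.14, adjusted p = 0.231).

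As a group, class II had a wider median difference in BAT than all members together. All 6 tested were higher in Mut, with a median of 0.69 against 0.32 for the 25, and none passed. Of all genes in BAT, 72.7% were higher. H2-DMb1, the beta chain of H2-DM, was at 8.00, 6.86, 7.55 and 10.61 TPM in Mut against 2.67, 2.04, 6.59 and 5.60 TPM in WT (0.91 ± 0.28, adjusted p = 0.154). H2-Aa was at 69.5, 84.8, 99.9 and 125 TPM in Mut BAT, overlapping with the WT values given above (0.62 ± 0.26, adjusted p = 0.236). BAT WT library 3 was the highest WT library for these genes. Without it, 5 members passed (Tapbp, H2-T24, H2-Eb1, B2m and H2-DMb1), and so did 6.74% of all genes. For B2m the adjusted p ran from 0.0107 to 0.274 over the alternatives. Under scaling by median ratios, which brings the median of all genes to -0.01, 22 members were higher and 3 lower, with a median of 0.21.

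In liver, where 4.16% of all genes were called, class II members had higher means in Mut and class I chains were mixed. Of 26 tested members, 19 had higher and 7 lower means in Mut, with a median of 0.21 against 0.10 over all genes, of which 69.0% were higher, a share near that of the members. At an unadjusted p under 0.05, 9 were higher (21.4% of all genes) and 2 lower (4.46%). All Mut libraries lay above all WT libraries for H2-Ab1, H2-Eb1, H2-T22 and Tap2, 4 members where 14.3% of all genes did so, and the reverse held for 0 members (2.12% of all genes). The 2 lower members were the Qa-2 chains H2-Q7 and H2-Q6. H2-Q7 was at 60.1, 81.6, 84.7 and 107 TPM in WT liver and 51.7, 38.9, 55.4 and 61.2 TPM in Mut. The groups overlapped by 1 library, and the difference was -0.66 ± 0.18 (SE, adjusted p = 0.0678), with adjusted p from 0.0314 to 0.161 over the alternatives. H2-Q6 averaged 25.0 ± 4.19 TPM in WT and 19.7 ± 1.97 in Mut (-0.32, adjusted p = 0.142). Another chain of the H2-Q genes, H2-Q1, went the other way. It averaged 6.20 ± 2.16 TPM in WT and 10.4 ± 4.14 in Mut (0.63, adjusted p = 0.183 in limma). Of the 12 tested class I chains 8 had higher and 4 lower means in Mut, with a median of 0.13. H2-K1 and H2-Q10 differed by -0.09 and 0.11, within their spread.

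All 6 tested class II members had higher means in Mut liver, with a median of 0.70, where 69.0% of all genes were higher, and none passed. H2-Eb1 was at 19.4, 14.9, 15.1 and 14.1 TPM in Mut liver against 4.41, 9.75, 7.89 and 14.0 in WT (0.84 ± 0.26, adjusted p = 0.0935). Transcripts annotated as protein-coding held an uneven part of these sums, 35.6% to 76.6% in WT liver and 26.4% to 50.7% in Mut. Over the alternatives the H2-Eb1 difference ran from 0.42 to 1.06. H2-Aa was at 31.8, 21.8, 22.9 and 26.4 TPM in Mut (0.73 ± 0.26, adjusted p = 0.124), and 1 WT library, at 23.7 TPM, lay among them. Tap2 was at 13.0, 12.9, 16.2 and 15.7 TPM against 9.34, 11.9, 10.24 and 11.8 (0.38 ± 0.11, adjusted p = 0.0734).

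In heart most members had lower means in Mut, as did most genes, and the count depended on 1 library. Of 25 tested members 21 were lower in Mut, with a median of -0.18 against -0.11 over all genes, of which 80.7% were lower and 0.15% were called. The members' share is near that of all genes. At an unadjusted p under 0.05, 1 member was lower (11.1% of all genes) and 0 higher (0.574%). It was H2-Ke6, which is also the 1 member with all Mut libraries below all WT libraries (7.21% of all genes). H2-Aa was at 26.6, 14.2, 34.4 and 32.2 TPM in Mut heart, the lowest value coming from library 2, the one with the raised mitochondrial share (-0.51 ± 0.25, adjusted p = 0.446). Without that library 13 members were higher and 12 lower, with a median of 0.02, and class II had 1 higher and 5 lower with a median of -0.18. Under median-ratio scaling 8 were higher and 17 lower, and after the rescaling without mitochondrial and abundant genes 10 were higher and 15 lower.

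In muscle, where 0.0085% of all genes were called, 20 of 24 tested members were higher in Mut, with a median of 0.18 against 0.05 over all genes, of which 67.0% were higher. At an unadjusted p under 0.05, 5 were higher (6.33% of all genes) and 0 lower (1.43%). B2m was at 179.9, 205.3, 219.6 and 179.9 TPM in Mut against 143, 175, 153 and 161 in WT, without overlap (3.83% of all genes were so separated), and differed by 0.31 ± 0.09 (adjusted p = 0.504). The 6 class II members were all higher in Mut muscle, with a median of 0.20.

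**Figure D4:**
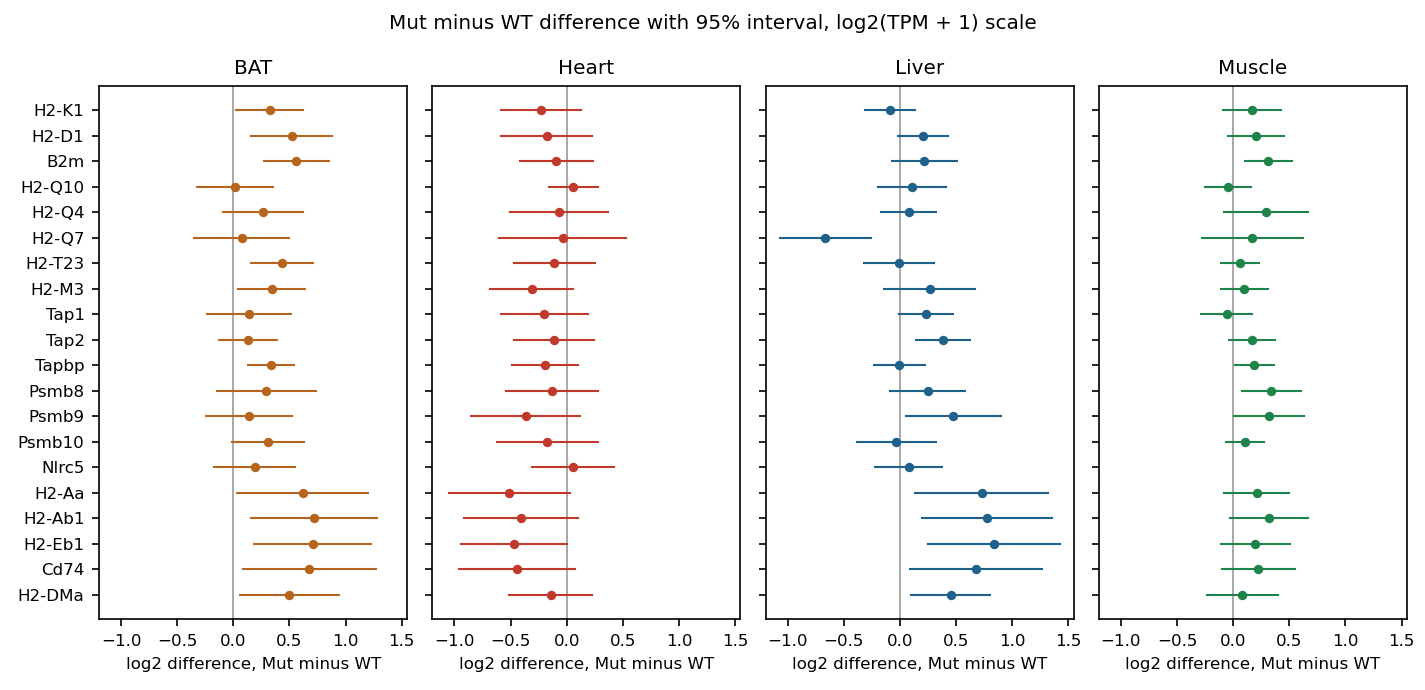
Mut minus WT difference on the log2(TPM + 1) scale with its 95% interval from limma, for the tested members of a list of 20, in BAT, heart, liver and muscle. In BAT most points lie right of 0, in heart most lie left of it, in liver H2-Q7 lies at -0.66 while the class II genes lie right of 0, and no member passed the adjusted threshold.

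Whether the genotype difference itself varied by tissue was tested over the 32 libraries. By limma's F test of the interaction, none of the 24 members tested in all 4 tissues passed, where 5.87% of all genes did. At an unadjusted p under 0.05 there were 13 members and 28% of all genes. The smallest adjusted p values were 0.0506 for H2-DMb1 and 0.0511 for H2-Eb1. With the replicate number as a block, 5 members passed (Cd74, H2-Aa, H2-Eb1, H2-Ab1 and H2-DMb1), with 6.34% of all genes. That block gives same-numbered WT and Mut libraries a shared term, although they come from different mice. Without BAT WT library 3 the count was 6, with 10.2% of all genes. The different signs in BAT, liver and heart are given as a description, with calls that depend on the fit.

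Macrophage markers and class II genes ranked the 4 WT BAT libraries alike and the 4 Mut BAT libraries differently. The summed level of 10 macrophage markers was 39.7, 57.7, 193 and 121 TPM in WT BAT and 240.5, 195, 192 and 262 TPM in Mut BAT, and the 4 summed class II genes H2-Aa, H2-Ab1, H2-Eb1 and Cd74 were at 157, 172, 346 and 278 and 278, 335, 389 and 479 TPM. BAT WT library 3 held the highest value of its group in both sums, and BAT Mut library 3 the lowest marker sum of its group with the second highest class II sum. The order of the WT BAT libraries was not particular to these sums. Dendritic cell markers (5.44, 6.79, 11.5 and 9.65 TPM), B cell markers and endothelial markers followed it too, as did H2-K1, H2-D1 and B2m. T cell and neutrophil markers did not. In liver the marker sum was 59.6, 83.3, 97.5 and 202.1 TPM in WT and 179, 127, 171 and 305 TPM in Mut. In heart it was 73.9 to 114 TPM in WT and 54.6 to 102 in Mut, and in muscle 32.1 to 41.8 and 44.9 to 62.3. All 7 tested markers had higher means in Mut BAT (median 1.23), all 10 in Mut liver (median 0.91), 7 of 7 in Mut muscle (median 0.45) and none of 8 in Mut heart (median -0.06). Of all genes, 72.7% were higher in Mut BAT, 69.0% in Mut liver and 67.0% in Mut muscle, and 80.7% were lower in Mut heart. Of the macrophage markers, Cd68 in liver passed in limma (1.09, adjusted p = 0.038), where 4.16% of all genes were called. Dendritic cell markers summed to 3.02 to 12.7 TPM over all libraries and T cell markers to 0.296 to 2.72 TPM. The B cell list was carried by Ighm, with Ms4a1 under 1 TPM in all libraries. Ighm, the IgM heavy chain, was at 7.12, 15.3, 29.0 and 23.7 TPM in WT BAT and 42.8, 39.0, 38.8 and 51.0 TPM in Mut BAT, without overlap (1.30, adjusted p = 0.129). In BAT, 7.75% of all genes had all Mut libraries above all WT libraries. Also higher on average in Mut BAT were 2 of 2 tested neutrophil markers (median 0.70), 3 of 4 endothelial markers (0.26) and 4 of 4 skeletal muscle fibre markers (0.51), and none passed. Their sums were 1.10 to 3.35 TPM in WT and 2.56 to 9.06 in Mut for neutrophils, 107 to 118 and 118 to 152.1 for endothelium, and 907 to 991 and 822 to 2128 for muscle fibres. Higher on average too in Mut BAT were 2 of 3 dendritic cell (median 0.27), 4 of 4 hepatocyte (0.05) and 4 of 4 cardiomyocyte markers (0.06). Of the brown adipocyte markers 3 of 4 were lower (median -0.03). The part of any of these cell types in the class II differences was not tested.

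**Figure D5:**
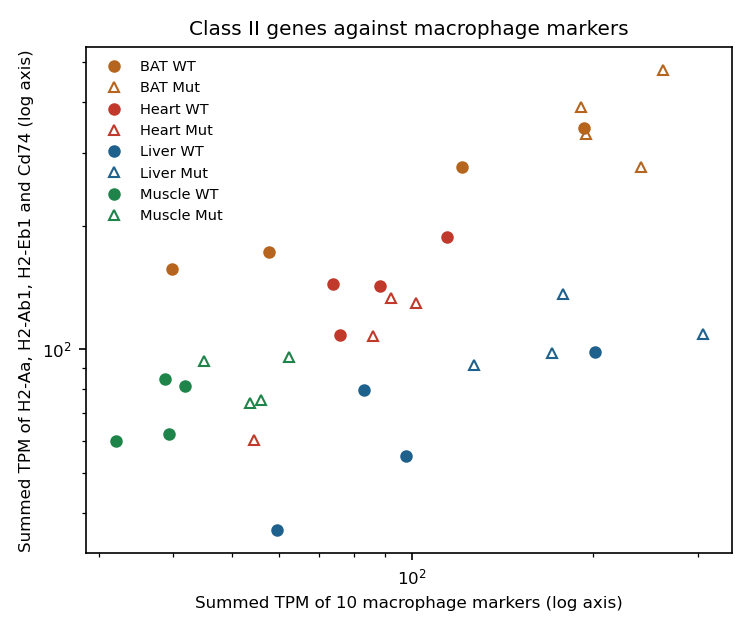
Summed TPM of H2-Aa, H2-Ab1, H2-Eb1 and Cd74 against the summed TPM of 10 macrophage markers, on log axes, in the 32 libraries, with filled circles for WT and open triangles for Mut. Mut BAT libraries lie at 192 to 262 TPM of markers and WT BAT libraries spread from 39.7 to 193 TPM.

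Other genes of the pathway came from fixed lists. The proteases and the thiol reductase that prepare class II peptides (Ctss, Ifi30, Lgmn and Ctsl) were all higher in Mut BAT, by 1.52, 0.80, 0.70 and 0.46, and none passed. In liver 3 of the 4 were higher, and Ctss differed by 1.14 (adjusted p = 0.0584). Interferon-stimulated genes were higher in Mut liver in 19 of 19 cases, with a median of 0.37, and 4 of them passed, where 69.0% of all genes were higher and 4.16% called. These were Gbp3 (0.56, adjusted p = 0.0499), Usp18 (0.56, 0.0336), Oasl1 (0.52, 0.027) and Irgm1 (0.38, 0.0254). In BAT 16 of 18 interferon-stimulated genes were higher and none passed, with 9 higher at an unadjusted p under 0.05, against 72.7% and 17.2% of all genes. The 5 loading partners of class I were all higher in Mut liver (median 0.24) and in Mut muscle (median 0.17). The 5 proteasome genes were all lower in Mut heart (median -0.23), and none of these genes passed. Of all genes, 67.0% were higher in Mut muscle and 80.7% were lower in Mut heart.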

How the data were processed

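RNA from frozen BAT, heart, liver and muscle was sequenced in 32 libraries, 4 per tissue and genotype. The deposited values are transcript TPM, which the authors obtained with Salmon, per the submitters' processing notes. The version, the transcriptome release and the use of strand are not given in the sources used. TPM keeps no read total, so depth is unknown and no counting interval is given. Of 147493 transcripts, 136081 (92.26%) matched GENCODE M21 and were summed per gene, and the unmatched ones held 0.451% to 0.896% of TPM.

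Gene sums were tested as log2(TPM + 1) with limma 3.58.1 (R 4.3.3, mean-variance trend, two-sided) for genes averaging 1 TPM or more, with Benjamini-Hochberg adjustment over all genes tested and a threshold of 0.05. Mut was compared with WT within each tissue, tissues were compared over the 16 WT libraries, and the interaction over all 32. Immunoproteasome shares were tested by exact permutation. Python 3.11.15 (pandas 2.3.3, numpy 2.4.6, scipy 1.17.1, matplotlib 3.10.9) was used for the rest. The tests were tried on simulated data. The labels call the samples individual mice, and p-values measure the spread between these libraries. The labels do not say that a replicate number marks 1 mouse across tissues, and same-numbered libraries did not deviate together throughout, so the numbers were not used as pairs. The tissue and interaction tests took all libraries as independent, which would not hold if tissues came from the same mice.

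The members, lists and tests were chosen with earlier results of these data known. Genes given with values were a core set of 21 members by role, any member called between genotypes, and genes of the pathway lists; other members are given by range or count, and H2-Q1, H2-Q6, H2-T22, H2-T24, H2-DMb1, H2-Ke6, H2-M9 and H2-Ob were named after their values were seen. Alternatives were the pseudocount, the filter, scaling, limma's trend and weights, the replicate block, 1 common fit and leaving out each library. Restriction to protein-coding transcripts was, for the gene tests, added after seeing the data. Promoter entries were used for 37 members; Tap2, H2-T24, H2-Q1, Cd74, Nlrc5, Ciita and H2-Ab1 had none. Some genes of the lists are not reported here.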

Additional observations from a re-analysis of the deposited data

Results flagged for a closer look

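In 6 of 158 groups of 4 libraries checked for the core genes, 1 library lay far from the other 3; chance alone flags about 1 in 20 such groups. BAT Mut library 4 was the highest for H2-K1, at 408 TPM against 263 to 287 in the others, and for B2m, at 1094 TPM against 812 to 834. Heart Mut library 2 was the lowest for H2-K1, at 65.1 TPM against 102.6 to 107, for H2-D1, at 44.4 TPM against 76.7 to 83.1, and for H2-T23, at 10.0 TPM against 16.7 to 17.5. Heart Mut library 3 was the highest for H2-Q10, at 27.9 TPM against 22.6 to 23.2.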

How the results depend on the processing

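Genotype counts of members called were 0 in the reported fits. In BAT the count was 4 with array weights, 3 in 1 fit over all libraries, and 0 to 5 when leaving out 1 library, with 5 reached without BAT WT library 3. In these 3 fits 5.33%, 6.98% and 6.74% of all genes were called. In heart it was 1 in 1 fit over all libraries, with 1.38% of all genes. In liver it was 1 with median-ratio scaling, 1 with array weights, 4 in 1 fit over all libraries, 1 with protein-coding transcripts only (chosen after seeing the data) and 0 to 1 when leaving out 1 library, with 1 reached without liver WT library 1. In these liver fits 2.27% to 15.9% of all genes were called. In muscle every alternative gave 0. The interaction count was 2 without a filter, 1 with a mean of at least 5 TPM, 2 with median-ratio scaling, 7 with array weights and 0 to 6 when leaving out 1 library; it was 6 without BAT WT library 3 and 4 without heart Mut library 3. With the replicate block the interaction count was 5, and the block left the genotype counts at 0 in the 4 tissues and gave 21 for BAT minus heart, where the reported fit gave 18. Same-numbered libraries correlated best with their own number in 2 of 32 comparisons of WT with Mut and in 53 of 96 comparisons between tissues of 1 genotype. Each comparison had 4 candidate libraries. The figure between tissues is a hint, from the data and not from the design, that a number may mark 1 mouse within a genotype. Leaving out 1 library gave 13 to 21 members for BAT minus heart and 23 to 25 for liver minus BAT. Rescaling without mitochondrial and abundant genes turned H2-Q4 (-0.062) and H2-D1 (-0.095) for liver minus BAT, and Tap2 (-0.34) and Psmb10 (-0.29) for liver minus heart; the cause was not tested beyond the scaling itself. With protein-coding transcripts only, the genotype difference in immunoproteasome share changed sign for Psmb9 in heart (0.077 percentage points) and muscle (-0.046) and for Psmb10 in heart (0.979) and liver (0.235). Leaving out 1 library, it ran from -0.639 to 0.198 for Psmb9 in BAT, -0.261 to 1.19 for Psmb8 in BAT, -0.733 to 0.683 for Psmb10 in heart, -1.31 to 0.740 for Psmb10 in liver and -0.131 to 0.384 for Psmb10 in muscle. Over all alternatives, those above included, 240 of 262 member counts stayed within 1.5 times, 531 of 552 genotype differences and 2540 of 2586 tissue differences kept direction and side of the threshold, 21 genotype differences newly passed and 42 tissue differences no longer did, and 4 reversed. Depth is unknown, so differences of members near 1 TPM are the least certain.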

Other observations

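Transcripts of a member were not used alike in the tissues. A coding transcript of Psmb10, the immunoproteasome subunit, averaged 23.9 ± 4.29 TPM in WT liver, 13.2 ± 1.74 in heart, 9.62 ± 1.70 in BAT and 4.07 ± 0.296 in muscle (SD, n = 4). A pair of its transcripts annotated as retained introns together made up 48.5 ± 1.92% of the gene's TPM in BAT and 54.4 ± 3.78% in muscle, but 15.5 ± 8.21% in heart and 11.5 ± 1.31% in liver. The near-level Psmb10 shares of BAT, heart and liver therefore hold different transcripts. Psmb10 overlaps another annotated gene, Gm16156, and the assignment of reads between them is uncertain.

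An alternative coding transcript of the invariant chain made up 24.3% of Cd74 in WT BAT and 22.4% in liver. Coding transcripts held 98.8% of H2-Aa and 98.3% of Tapbp in WT BAT. They held 28.7% of Tap2, 31.4% of Nlrc5 and 37.1% of H2-Eb1, so the gene sums of these 3 members are mostly on transcripts not annotated as protein-coding.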
